A study of Mus musculus with 23 samples.

Results

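Immediate early genes are switched on within minutes of a growth factor, serum or stress signal, without new protein synthesis, and their mRNAs are short-lived. The Fos proteins pair with the Jun proteins through a leucine zipper to form the transcription factor AP-1, Egr1 is a zinc finger factor induced by the Ras and Erk pathway, and Ier2 and Ier3 are small proteins induced by the same signals. In embryonic stem (ES) cells Erk signalling is known for driving exit from self-renewal. The genes described here are the 10 members Fos, Fosb, Fosl1, Fosl2, Jun, Junb, Jund, Egr1, Ier2 and Ier3, taken by symbol from 18412 genes of each deposited table. All 10 had exon rows in the time course, the rescue and the genetic series.

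The study measured polyadenylated RNA of mouse ES cells in 23 libraries, after loss or return of Argonaute proteins, the core of the microRNA silencing complex. The cells grew on gelatin with serum and leukemia inhibitory factor. The conditional cells were a clonal line without Blm and without Ago1, Ago2, Ago3 and Ago4, which carried CreERT2 and TT-FHAgo2, an Ago2 transgene switched on by doxycycline, and was kept at 0.1 µg/mL. The time course began with 48 h of 2.5 µg/mL, a dose that per the labels gives the wild-type level of Ago2, and followed removal of the drug at 0, 24, 48 and 96 h (n = 2 per time). The rescue gave 48 h of 0.1 or 2.5 µg/mL (n = 2 per dose) to cells that had gone 96 h without the drug, and compared them with cells that had only those 96 h (n = 2). The genetic series held 2 clones, C62 and C86, without Blm and all 4 genes and with CreERT2 (1 library a clone, n = 2), the line E7, which had the same losses and CreERT2 and also carried hAgo2fl (n = 3), the line B9 (Blm-/-, with Ago1, Ago3 and Ago4 deleted and Ago2 kept, n = 2) and AB2.2 wild type (n = 2). E7, B9 and wild type were 1 line each. Hours in culture rose with hours without doxycycline, and dosed rescue cells had 48 h more than their controls. No cells without the transgene were given the drug. Hours in culture and doxycycline itself thus cannot be told apart from the change in Ago2.

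Values are normalised reads, which are read numbers divided by the authors' size factor for the library, so fewer cells of a type and less RNA per cell cannot be told apart. The 2 or 3 values of a group are given with the deepest library, library 1, first. Exon reads per library were 32874536 to 62399060 in the time course, 24702128 to 53767538 in the rescue and 13516827 to 53691774 in the genetic series. Ago1 was at 0 in every mutant and conditional library and at 3514 and 4693 normalised reads in wild type. Reads over Ago2 exons did not separate the groups as the labels would: they were 10771 and 10817 after 96 h, against 11759 and 12167 at 0 h, and 5199 and 6439 in the clones, against 5199.7 and 7254 in wild type. Ago3 was not at 0 in any library either. The reads thus give no check on the loss of Ago2 itself. All 8 ES cell markers were above 10 mean normalised reads in the conditional series, as were the 6 with values in the genetic series. Their levels were not constant: 3 were called higher and 5 lower at each of 24, 48 and 96 h against 0 h. That is 100% of the list, against 50.7, 63.3 and 65% of all genes. At 2.5 µg/mL 5 were higher and 1 lower than without doxycycline (75% of the list, against 63.8%). In the clones 2 of 6 were higher than in wild type (33.3%, against 18.6%). Of 9 fibroblast markers at least 5 were under 10 mean normalised reads in every group, and Col3a1 was at 0 in all of the time course and rescue groups. The 3 that could be tested, Col1a1, Thy1 and Pdgfrb, were all called higher at 24 and 48 h than at 0 h.

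Fos (chr12:85473890-85477273, plus strand), Fosb (chr7:19302696-19310051, minus strand) and Jun (chr4:95049034-95052222, minus strand) are placed by GENCODE M21 on GRCm38, the mm10 build. Their proximal promoters are shown because Fosb and Jun had the largest changes at 96 h of the Fos and Jun families and Fos is the founding member. Each line holds the 120 bases that end just before the RefSeq transcription start (GRCm38.p6), 5′ to 3′ on the gene's strand. Capitals mark the CRE core TGACG, the Egr site GCGNGGGCG and the TATA motif TATAAA, searched on both strands.
Fos, chr12:85473770-85473889: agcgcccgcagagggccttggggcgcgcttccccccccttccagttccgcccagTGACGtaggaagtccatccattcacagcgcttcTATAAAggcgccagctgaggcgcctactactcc
Fosb, chr7:19310046-19310165: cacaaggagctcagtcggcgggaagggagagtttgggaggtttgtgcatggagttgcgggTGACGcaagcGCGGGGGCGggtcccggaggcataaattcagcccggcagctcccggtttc
Jun, chr4:95052223-95052342: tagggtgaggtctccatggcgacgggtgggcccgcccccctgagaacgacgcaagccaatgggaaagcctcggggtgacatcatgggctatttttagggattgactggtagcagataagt

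RefSeq promoters were found for 7 of the 10 members, all but Fosl1, Egr1 and Ier2, and were searched over the 250 bases before the start. The core TGACG, part of the element bound by Creb and Atf factors, was in 3 of the 7 (Fos, Fosb and Junb) and in 17.9% of 27025 promoters of that length. The Egr site was in 2 of the 7 (Fosb and Fosl2), against 4.65% of all promoters. The TATA motif was in 1 of the 7 (Fos), against 13.0%. None of the 7 held a full CRE TGACGTCA, an AP-1 site TGANTCA or a CArG box, the element of serum response factor, in this window. For Jund the window ended at 70697738, upstream of the GENCODE start at 70698949, so bases just before that start were not searched. The full CRE contains the core TGACG. The full CRE was in 1.62%, the AP-1 site in 6.87% and the CArG box in 1.40% of all promoters. The Jun promoter shown held none of the motifs searched.

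MicroRNA seeds are shown because Argonaute proteins hold microRNAs, and the 3′ UTRs of the members could be searched for their complements. In the mature sequences from RefSeq the capitals are the seed, bases 2 to 8.
mmu-miR-294-3p: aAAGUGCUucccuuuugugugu
mmu-miR-302b-3p: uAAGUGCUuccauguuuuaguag
mmu-miR-101a-3p: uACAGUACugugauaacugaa

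miR-294-3p and miR-302b-3p, which are abundant in ES cells, share 1 seed. Of 12 microRNAs searched, this seed had a complement in the 3′ UTRs of Fosb and Ier3, and in 13.2% of 20573 coding genes' 3′ UTRs. Longer UTRs hold more matches, and among UTRs of like length the share was 22.6% for Fosb and 5.59% for Ier3. The miR-101a-3p seed had a complement in Fos, Fosl2 and Junb, and in 8.57% of all, or 6.01, 28.8 and 4.26% of UTRs of like length. The miR-19b-3p seed had one in as many members, Fosb, Fosl1 and Fosl2, where 15.9, 5.95 and 32.4% of like length did. The miR-34a-5p seed had one in Fos and Fosb (10.1 and 21.9% of like length), and that of miR-7a-5p in Fos and Ier3 (8.26 and 6.12%). Fosl2 also held complements to the seeds of miR-16-5p (3 sites, 51.5%), miR-17-5p (36.4%), miR-92a-3p (20.7%) and miR-130a-3p (31.0%). Jun, Jund, Egr1 and Ier2 had no complement to the seed of any of the 12. The sites below are read from the GENCODE M21 UTRs, 29 bases each, with the complement in capitals.
Fosb site: ggttcccaaaaAGCACTTatatctattat
Ier3 site: ctccgtcttccAGCACTTcaactctgtag
Fos site: gctatatccatGTACTGTagtccttcagc
Junb site: ccctctgcataGTACTGTggagaagaaac

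The AU-rich pentamer ATTTA, which marks short-lived mRNAs, occurred 5 times in the 613 bases of the Ier3 3′ UTR and 4 times in the 815 bases of that of Fos. As many or more were found in 3.06% of 2417 UTRs of like length (within 0.8 times either way) for Ier3 and in 12.9% of 2712 for Fos. These were the lowest shares of the 10. Jun had 4 (27.2%) and Junb 2 (23.0%), while Fosl1, Fosl2, Jund and Egr1 were at the median of UTRs of like length. Fosb had 1, against a median of 4, and 92.5% had as many. Ier2 had none in 755 bases. Windows of 29 bases with the most pentamers, in capitals, are shown for both.
Ier3: tccgtgtctaattaatATTTAtgtATTTA
Fos: acgtttttattgtgttttcaATTTATTTA

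Per kilobase of exon, the 10 genes ranged widely before doxycycline was removed. At 0 h Ier2 was highest at 7675 normalised reads per kb, followed by Jund at 3103, Egr1 at 1753 and Junb at 1655. Ier3 followed at 361.8, Fos at 126.2, Jun at 113.1, Fosl1 at 32.6, Fosl2 at 32.2 and Fosb at 11.4. The libraries of neighbours in this order overlapped for Egr1 and Junb and for Fosl1 and Fosl2, and not for the others. Of genes with at least 1 read at 0 h, 97.6% were lower than Ier2 and 20.1% were lower than Fosb. At 96 h the order was Ier2 (7796), Jund (6341), Egr1 (3250), Junb (3031), Ier3 (925.5), Jun (330.1), Fos (288.1), Fosl2 (121.6), Fosb (47.8) and Fosl1 (12.7 per kb), with overlap between neighbours for Egr1 and Junb alone. Jun and Fos, and Fosl1 relative to Fosl2 and Fosb, stood in another order than at 0 h.

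The time course asked which transcripts changed as Ago2 was lost. By 96 h most of the AP-1 genes were higher than at 0 h, by 1.83-fold for Junb to 4.16-fold for Fosb. The path differed between genes: the Fos, Fosb and Fosl2 transcripts were higher at each later time than at 0 h, Jun was level at 24 h and higher from 48 h, Egr1, Ier2 and Junb were lowest at 24 h, Ier3 was highest at 24 h, and Fosl1 was lower. Calls are from limma on log2(normalised reads + 1), in 1 fit over the 8 libraries, at an adjusted p below 0.05 over 13652 genes (Benjamini-Hochberg). At 24 h against 0 h 5 members were called higher and 3 lower, where 50.7% of all genes tested were called (26.5% higher, 24.1% lower). At 48 h against 0 h 7 were higher and 3 lower, against 63.3% of all genes (32.1% higher, 31.2% lower). At 96 h against 0 h 8 were higher and 1 lower, against 65% of all genes (32.4% higher, 32.5% lower). The median log2 change of the 10 members was 0.03, 0.84 and 1.11 at 24, 48 and 96 h, beside 0.01, 0.01 and -0.01 for all genes tested.

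**Figure D1:**
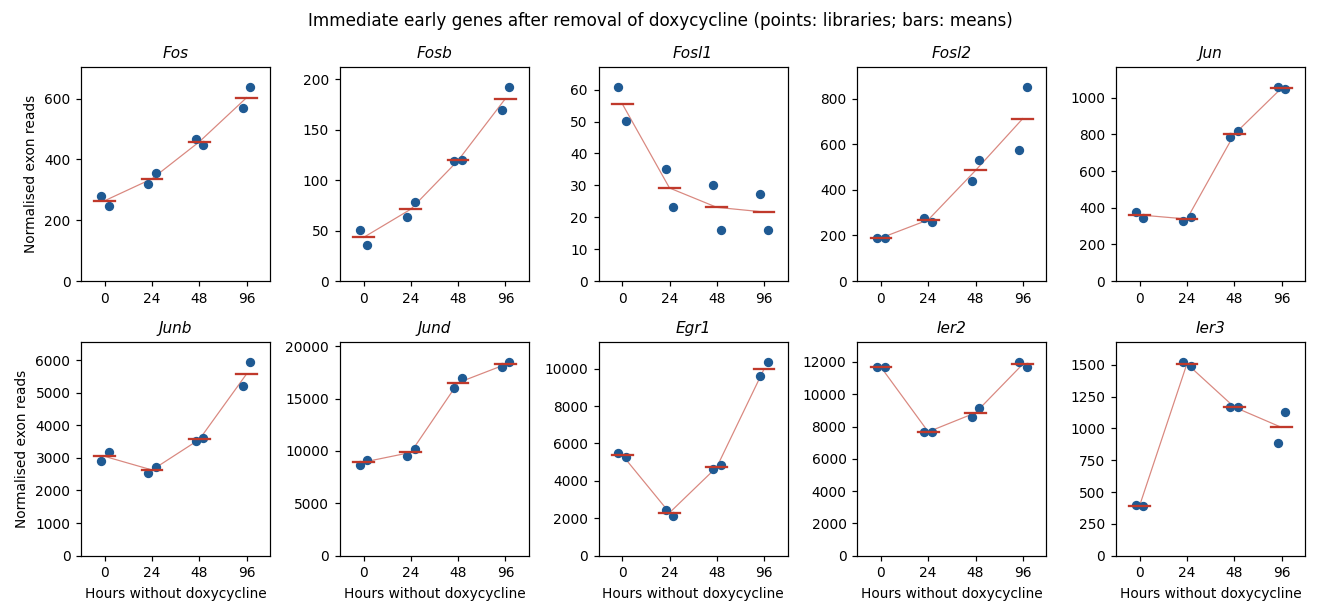
Normalised exon reads (vertical axis, from 0) of each member at 0, 24, 48 and 96 h without doxycycline (horizontal axis), with 1 point per library (n = 2) and a bar at the mean. Fos, Fosb, Fosl2 and Jund are higher at each later time, Jun from 48 h, Fosl1 is lower, Egr1, Ier2 and Junb dip at 24 h, and Ier3 peaks there.

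Fos, the partner of Jun proteins in AP-1, had 280.3 and 248 normalised reads at 0 h, 318 and 355 after 24 h, 467 and 449 after 48 h, and 568 and 638 after 96 h. No 2 times overlapped. Its log2 change against 0 h was 0.35 (SE 0.12, limma adjusted p = 0.0216) at 24 h, 0.79 (5.43e-06) at 48 h and 1.19 (1.06e-08) at 96 h. The 24 h call was lost without library 2 of 0 h (adjusted p = 0.166) or of 24 h (0.151), with quantile normalisation (0.11) and with limma voom (0.072).

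Fosb, which is kept low in resting cells and is known for its long-lived splice form in neurons, had the largest change of the 10 at 96 h. It had 50.3 and 36.1 normalised reads at 0 h, 63.8 and 78.6 after 24 h, 119 and 120.1 after 48 h, and 169 and 192 after 96 h, with no overlap between times. The log2 change was 0.72, 1.47 and 2.06 against 0 h (SE 0.24, limma adjusted p = 0.0162, 1.27e-05 and 8.55e-08). At 24 h the call was lost without library 2 of 0 h (0.162) or of 24 h (0.117) and under 3 other settings given in the closing section.

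Fosl2, or Fra2, had 187 and 190.4 normalised reads at 0 h, 276 and 261 after 24 h, 441 and 529.5 after 48 h, and 574 and 852 after 96 h. The libraries did not overlap between times, though those of 96 h lay 0.57 apart on the log2 scale. Its log2 change was 0.50, 1.35 and 1.88 (SE 0.15, limma adjusted p = 0.00794, 4.71e-08 and 1.51e-10). The 24 h call was lost with quantile normalisation (0.052) and voom (0.0642).

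Fosl1, or Fra1, went the other way at low counts. It had 60.9 and 50.3 normalised reads at 0 h, 35.1 and 23.3 after 24 h, 30.1 and 16.1 after 48 h, and 27.2 and 16.1 after 96 h. All later libraries were below both 0 h libraries, and they overlapped with one another. In log2 terms the change was -0.93 at 24 h (SE 0.42, limma adjusted p = 0.0719, not called, though called under 3 other settings, down to 0.036), -1.29 at 48 h (0.011) and -1.36 at 96 h (0.0073). The 48 h call was lost without library 1 of 0 h (0.0733) or library 2 of 48 h (0.157), and the 96 h call without library 1 of 0 h (0.0557) or library 2 of 96 h (0.0828). Ccdc85b lies on the opposite strand over 2767 bases of the GENCODE span of Fosl1. How much of this was counted, and whether reads were counted by strand, is not given in the sources used here.

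Jun, the AP-1 subunit phosphorylated by Jnk, had 375 and 346 normalised reads at 0 h, 327 and 349 after 24 h, 784 and 816 after 48 h, and 1059 and 1045 after 96 h. The 24 h libraries overlapped those of 0 h, and those of 48 and 96 h were above both. This gave a log2 change of -0.09 (SE 0.10, limma adjusted p = 0.473) at 24 h, 1.15 (8.08e-10) at 48 h and 1.54 (3.51e-12) at 96 h. It was 1.24 higher at 48 h than at 24 h (3.27e-09) and 0.40 higher at 96 h than at 48 h (0.00347). The antisense gene Junos lies over 689 bases of Jun and Gm11175 over 919 bases of Jund.

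Junb, a Jun protein with weaker activating function, had 2915 and 3174 normalised reads at 0 h, 2533 and 2724 after 24 h, 3519 and 3613 after 48 h, and 5203 and 5952 after 96 h. Both 24 h libraries were below those of 0 h and both at 48 and 96 h were above them. The log2 change was -0.21 (SE 0.06, limma adjusted p = 0.00685), 0.23 (0.00267) and 0.87 (1.82e-11). The 24 h call was lost without library 2 of 0 h (0.113) or library 1 of 24 h (0.0936), and the 48 h call without library 1 of 0 h (0.059). Prdx2 overlaps the GENCODE span of Junb by 351 bases on the opposite strand. That span (84974484 to 84978718) is longer than the 1840 bases counted for Junb, and whether the overlap was among them was not checked.

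Jund, the most abundant Jun in these cells, had 8681 and 9182 normalised reads at 0 h, 9488 and 10223 after 24 h, 16020.0 and 16993 after 48 h, and 17972 and 18525 after 96 h. The times did not overlap. The change was small at 24 h (0.14, SE 0.05, limma adjusted p = 0.0138) and near its final size at 48 h (0.89, 1.06e-13), with 1.03 at 96 h (4.18e-15). The 24 h call was lost without library 1 of 0 h (0.153) or library 2 of 24 h (0.216).

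Egr1 had 5506 and 5263 normalised reads at 0 h, 2456 and 2142 after 24 h, 4632 and 4839 after 48 h, and 9593 and 10373 after 96 h. It fell by 1.23 on the log2 scale at 24 h (SE 0.06, limma adjusted p = 8.25e-14) and was higher by 0.89 at 96 h (4.01e-12), and no times overlapped. At 48 h it was slightly below 0 h (-0.19, 0.00826), a call lost without library 1 of 0 h (0.0771) or of 48 h (0.0938). The difference of 96 h against 24 h was 2.12 (2.27e-18), in a comparison added after the values were seen, which called 57.3% of all genes and 9 of the 10 members.

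Ier2, a nuclear protein induced with Egr1, shared the dip. It had 11671 and 11693 normalised reads at 0 h, 7662 and 7687 after 24 h, 8587 and 9119 after 48 h, and 12024 and 11708 after 96 h. Its log2 change was -0.61 (SE 0.04, limma adjusted p = 8.09e-11), -0.40 (2.27e-08) and 0.02 (0.666), so that it was back at the 0 h level by 96 h within its error.

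Ier3, a small stress-induced protein that affects cell survival, had the largest change at 24 h. It had 398 and 391 normalised reads at 0 h, 1526 and 1491 after 24 h, 1172 and 1165 after 48 h, and 888 and 1129.8 after 96 h. Every later library was above those of 0 h, and the 24 h libraries were the highest. In log2 terms the change was 1.93, 1.56 and 1.34 (SE 0.09, limma adjusted p = 1.39e-13, 1.49e-12 and 1.48e-11), and 48 h was lower than 24 h by 0.37 (-0.37, 0.0034).

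Between successive times, 8 members were higher and 1, Ier3, was lower at 48 h than at 24 h, where 39% of all genes tested were called (20.2% higher, 18.8% lower). At 96 h against 48 h 7 were higher and none lower, against 36.4% of all genes (20.1% higher, 16.3% lower). The 48 h against 24 h calls of Fos and Fosb, and the 96 h against 48 h calls of Fos, Fosl2 and Jund, were lost when single libraries were left out, and 4 to 7 of the 10 were then called in the second step. In that step Fosb was 0.59 higher (SE 0.24, limma adjusted p = 0.06), Fosl1 -0.07 (0.915) and Ier3 -0.22 (0.0707), none of them called. Fosb was called in that step under 4 other settings (down to 0.0128), and Ier3 under 2 (down to 0.0312) and without library 2 of 96 h (0.00277).

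Markers of handling and heat shock, and of other cell types, differed between times too. Of 7 handling and heat shock genes 5 were called higher at 24 h, 4 higher and 1 lower at 48 h, and 5 higher at 96 h against 0 h. That is 71.4% of the list each time, against 50.7, 63.3 and 65% of all genes. Their summed exon level was 289187 to 294377 normalised reads at 0 h, 329987 to 335228 at 24 h, 312051 to 325738 at 48 h and 301390 to 321671 at 96 h, and none was at 0. Hspa1a was highest at 96 h, at 120.5 against 55.5 mean normalised reads at 0 h (limma adjusted p = 0.000273).

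The 9 fibroblast markers summed to 326.6 to 338.1 normalised reads at 0 h, 650.8 to 681.1 at 24 h, 606.1 to 658.4 at 48 h and 419.6 to 456.1 at 96 h. The 7 trophoblast markers summed to 1604 to 1608 at 0 h, 1409 to 1491 at 24 h, 1975 to 2065 at 48 h and 3149 to 3152 at 96 h. Of their 5 tested genes 2 were called higher and 1 lower at 96 h, and most of the sum was the keratin Krt8, at 2400.0 mean normalised reads, against 875.4 at 0 h, while Cdx2 had 1.98, against 5.09 at 0 h. In the rescue the trophoblast sum was 2753 to 2869 without doxycycline, 1676 to 1682 at 0.1 and 1531 to 1697 at 2.5 µg/mL, with 1 of 5 called in each direction at the higher dose. The 5 neuroectoderm markers summed to 9952 to 10722 at 0 h, 12179 to 12296 at 24 h, 14080 to 14082 at 48 h and 10963 to 11101 at 96 h, with 3 of 4 tested called higher and 1 lower at 48 h. Their sum was 6447 to 12274 in the clones, against 4836 to 5194 in wild type, with none called. Against B9 2 of the 4 tested were called higher in the clones (50% of the list, against 13% of all genes). For clones against wild type 2 of 5 tested trophoblast genes and 2 of 7 primitive endoderm genes were called lower. So was 1 of 3 fibroblast genes, and no gene of these lists was called higher, where 18.6% of all genes were called. At 96 h 2 of 6 tested primitive endoderm genes were higher and 2 lower than at 0 h. The part of these marker genes in the changes of the immediate early genes was not tested.

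**Figure D2:**
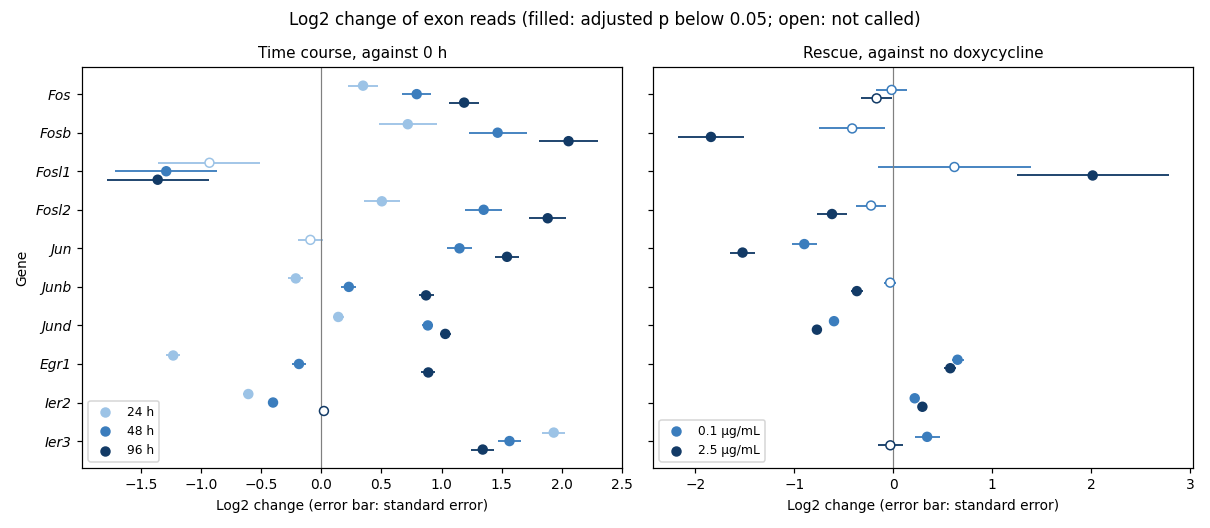
Log2 change of exon reads (horizontal axis) with its standard error, for each member (vertical axis), at 24, 48 and 96 h against 0 h (left) and at 0.1 and 2.5 µg/mL against no doxycycline (right). Filled points had an adjusted p below 0.05. Fosb, Fosl2, Jun, Junb and Jund lie right of 0 at 96 h and left of 0 at 2.5 µg/mL, while Egr1 lies right of 0 at 96 h and at both doses.

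Intron reads, which come mostly from unspliced RNA, could be followed for few of these genes. Jun, Junb, Jund and Ier2 have no intron in the files. Fosl1 and Ier3 were below the minimum of 10 mean normalised intron reads in the time course. Of the 4 tested there (Fos, Fosb, Fosl2 and Egr1), 1 was called at 24 h against 0 h (37.2% of 12225 genes), 1 at 48 h (43.4%) and 2 at 96 h (44.6%). The call at 48 h and 1 of those at 96 h were of Fosb introns, which passed the minimum only through these times. Those Fosb calls are a description, which leaves Egr1 at 24 and 96 h to set beside these shares. Without a filter on low values Ier3 introns, an 89 base stretch, were called higher at 24 h (2.31, limma adjusted p = 0.0234), 48 h (3.02, 0.00423) and 96 h (2.45, 0.0135) than at 0 h.

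Egr1 introns followed its exons with a wider range. They had 38.5 and 48.7 normalised reads at 0 h, 13.2 and 9.16 after 24 h, 42.3 and 50.1 after 48 h, and 152 and 136 after 96 h. The 24 h libraries were the lowest and the 96 h libraries the highest, with those of 0 and 48 h overlapping. The log2 change of the introns was -1.89 at 24 h (SE 0.33, limma adjusted p = 3.86e-05), 0.09 at 48 h (0.858) and 1.71 at 96 h (9.03e-05). Whether exon and intron changes differed was not tested.

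Fosb introns had 1.92 and 5.19 normalised reads at 0 h, 8.77 and 6.10 after 24 h, 24.8 and 8.22 after 48 h, and 21.1 and 22.0 after 96 h. All later libraries were above 0 h, from 2 to 34 reads each. Fosb introns passed the minimum of 10 mean reads only through 48 and 96 h (means of 16.5 and 21.5, against 3.56 at 0 h and 7.44 at 24 h), so their calls are a description. The log2 change was 1.86 at 48 h (SE 0.70, limma adjusted p = 0.0311) and 2.41 at 96 h (0.00563). Both calls were lost without library 1 of 0 h (0.196 and 0.0602), and that of 48 h also without library 1 of 48 h (0.398). Fosl2 introns had 46.2 and 24.1 normalised reads after 96 h, against 34.6 and 34.2 at 0 h, in libraries that overlapped, and the log2 change at 96 h was -0.04 (SE 0.43, 0.947). Fos introns changed by 0.87 at 96 h (SE 0.68, 0.316) and were not called.

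**Figure D3:**
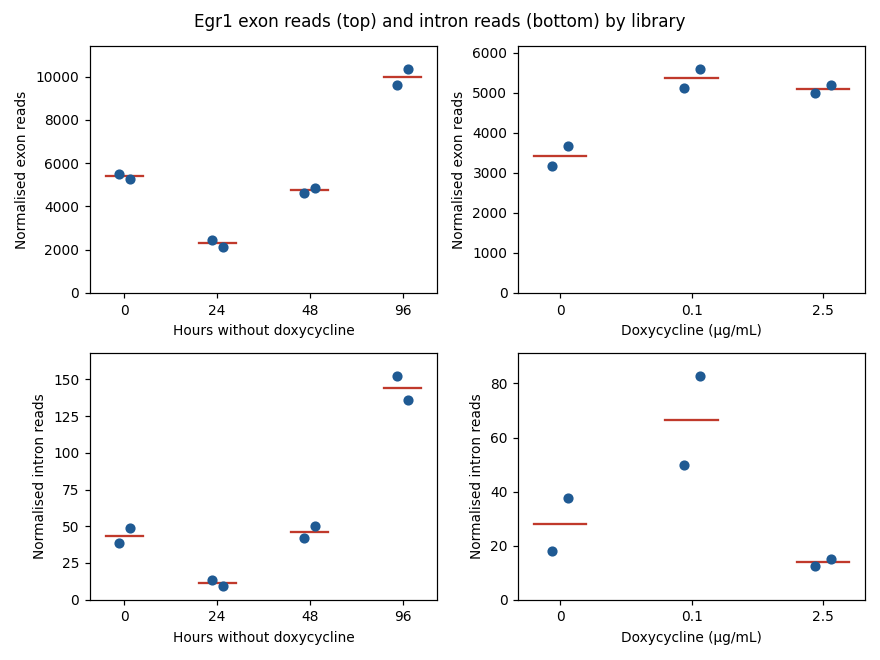
Normalised reads of Egr1 (vertical axes, from 0) over exons (top) and introns (bottom), by hours without doxycycline (left) and by doxycycline dose in µg/mL (right), with 1 point per library (n = 2) and a bar at the mean. Introns and exons are lowest at 24 h and highest at 96 h, while at 2.5 µg/mL introns are below and exons above the level without doxycycline.

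The rescue asked what changed when Ago2 was returned. Jun, Jund, Fosb, Fosl2 and Junb were lower at 2.5 µg/mL than without doxycycline, with log2 changes between -0.37 and -1.84, while Egr1 and Ier2 were higher, as was Fosl1 at low counts. At 0.1 µg/mL 3 members were higher (Egr1, Ier2 and Ier3) and 2 lower (Jun and Jund), where 44.1% of 13176 genes tested were called (22% higher, 22.1% lower). At 2.5 µg/mL 3 were higher and 5 lower, against 63.8% of all genes (31.8% higher, 32% lower). Of the 3 higher, Fosl1 passed the minimum of 10 mean reads only through 2.5 µg/mL. Its call is a description, which leaves Egr1 and Ier2 to set beside the share of all genes. Between the doses 6 were lower at 2.5 than at 0.1 µg/mL and none higher, against 41% of all genes (20% higher, 21% lower). Of these 6 the calls of Fosl2 and Ier3 were lost without a filter on low values (limma adjusted p = 0.0755 and 0.0526) and without single libraries. The median log2 change of the members was -0.02 at 0.1 µg/mL and -0.27 at 2.5 µg/mL, beside -0.01 and 0.00 for all genes tested.

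**Figure D4:**
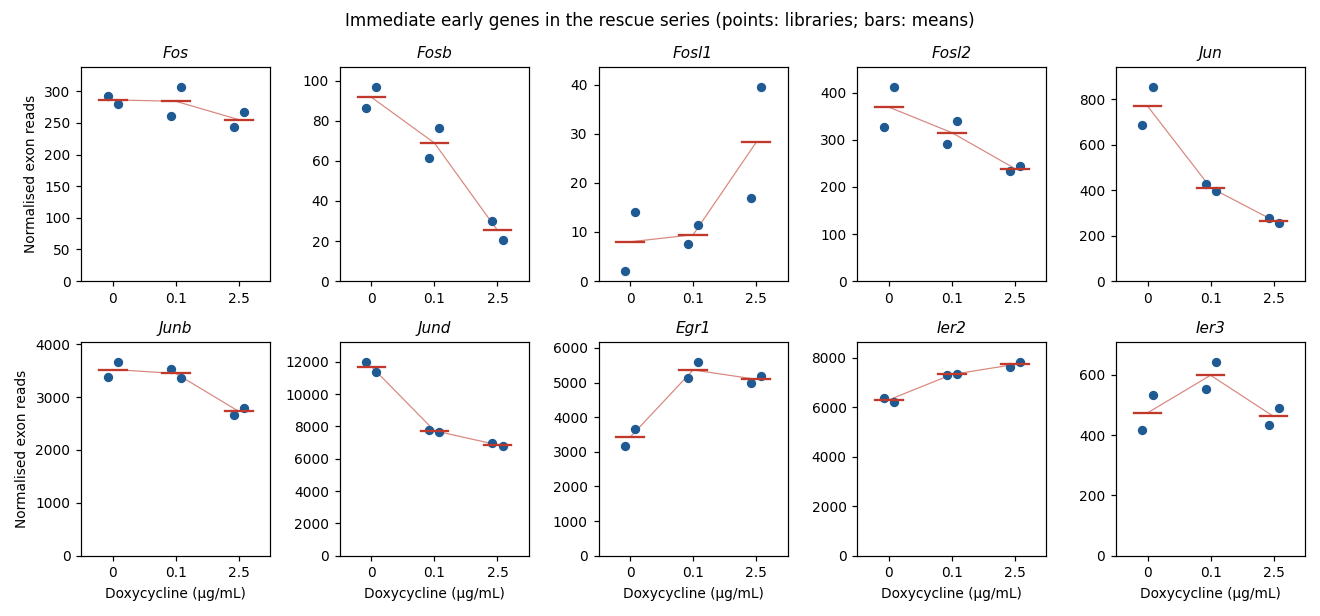
Normalised exon reads (vertical axis, from 0) of each member at 0, 0.1 and 2.5 µg/mL doxycycline (horizontal axis), with 1 point per library (n = 2) and a bar at the mean. Jun is lower at each dose step, Fosb is lowest at 2.5 µg/mL, Jund falls mostly between 0 and 0.1 µg/mL, and Fos shows no trend beyond its libraries' spread.

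Jun had 685 and 854 normalised reads without doxycycline, 425 and 396 with 0.1 µg/mL, and 276 and 256 with 2.5 µg/mL, with no overlap. The log2 change was -0.90 at 0.1 µg/mL (SE 0.13, limma adjusted p = 2.3e-06) and -1.52 at 2.5 µg/mL (6.05e-11), and -0.62 between the doses (0.000301). Jund had 12011 and 11394 without doxycycline, 7784 and 7679 with 0.1, and 6954 and 6765 with 2.5 µg/mL, again with no overlap. Its change was -0.60 and -0.77 (SE 0.05, 7.43e-11 and 5.44e-14), most of it present at the lower dose. Junb had 3371 and 3671 without doxycycline, 3537 and 3356 with 0.1, and 2669.8 and 2789 with 2.5 µg/mL, so that only the higher dose stood apart (-0.37, SE 0.06, 4.28e-06).

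Fosb had 86.6 and 97.0 normalised reads without doxycycline, 61.6 and 76.4 with 0.1 µg/mL, and 30.1 and 20.6 with 2.5 µg/mL. The groups did not overlap. Its log2 change was -0.41 at 0.1 µg/mL (SE 0.33, limma adjusted p = 0.337, not called) and -1.84 at 2.5 µg/mL (2.84e-05). Fosl2 had 327 and 413 without doxycycline, 292 and 339 with 0.1, and 234 and 244 with 2.5 µg/mL, where the 2.5 µg/mL libraries were below all others (-0.62 against none, SE 0.15, 0.000929).

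Fos had 292 and 280.2 normalised reads without doxycycline, 261 and 307 with 0.1, and 244 and 266 with 2.5 µg/mL. The dose groups overlapped each other, and those at 2.5 µg/mL were just below the cells without doxycycline (-0.17, SE 0.15, limma adjusted p = 0.351, not called). Fosl1 had 1.97 and 14.01 without doxycycline, 7.54 and 11.3 with 0.1, and 17.0 and 39.5 with 2.5 µg/mL, from 2 to 50 reads a library. The 2.5 µg/mL libraries were above all others, the lower of them by little. Fosl1 passed the minimum of 10 mean reads only through 2.5 µg/mL (mean 28.3, against 7.99 without doxycycline and 9.43 with 0.1 µg/mL), so its call there is a description. The log2 change at 2.5 µg/mL was 2.02 (SE 0.77, 0.0245), a call lost without library 1 of the cells without doxycycline (0.359) or library 2 of 2.5 µg/mL (0.211).

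Egr1 had 3179 and 3665 normalised exon reads without doxycycline, 5123 and 5606 with 0.1, and 4998 and 5191 with 2.5 µg/mL. Both doses were above the undosed cells and overlapped each other (0.65 and 0.58, SE 0.06, limma adjusted p = 2.1e-09 and 3.91e-09). Its introns had 18.2 and 37.6 without doxycycline, 49.96 and 82.9 with 0.1, and 12.6 and 15.0 with 2.5 µg/mL. The intron log2 change was 1.27 at 0.1 µg/mL (SE 0.46, 0.0816) and -0.88 at 2.5 µg/mL (0.119), neither called, and -2.15 at 2.5 against 0.1 µg/mL (0.000719), while the exons of that comparison changed by -0.07 (0.355). Of the 2 members whose introns were tested, Egr1 and Fosl2, none was called at 0.1 µg/mL (10.3% of 11580 genes) or 2.5 µg/mL (46.4%), and Egr1 was called between the doses (34.3%). With a pseudocount of 8 the intron change at 0.1 µg/mL was called as well.

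Ier2 had 6373 and 6229.8 normalised reads without doxycycline, 7310.0 and 7348 with 0.1, and 7619.97 and 7849 with 2.5 µg/mL (0.22 and 0.30, SE 0.05, limma adjusted p = 0.000365 and 3.31e-06). The doses lay above the undosed cells without overlap. Ier3 had 416 and 531 without doxycycline, 553 and 643 with 0.1, and 435 and 489 with 2.5 µg/mL. Only 0.1 µg/mL stood above the undosed cells (0.34, SE 0.13, 0.0298), and that call was lost without library 1 of the undosed cells (0.428), without library 2 of 0.1 µg/mL (0.257) or with no filter on low values (0.0674). Of the 7 handling and heat shock markers none was called at 0.1 µg/mL and 2 in each direction at 2.5 µg/mL (57.1% of the list, against 63.8% of all genes). Their sums were 239697 to 251267 normalised reads without doxycycline, 249373 to 261173 at 0.1 and 244793 to 256737 at 2.5 µg/mL.

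Across the 2 conditional series Fosb, Fosl2, Jun, Junb and Jund were higher 96 h after doxycycline was removed and lower after 2.5 µg/mL was given back. Of all genes tested 32.4% were called higher at 96 h and 32% lower at 2.5 µg/mL. How many genes had both calls was not counted, so this is a description. The series used separate libraries and were normalised apart. Fosl1 was lower in the first at 48 and 96 h, and its call in the second was lost without either of 2 libraries (limma adjusted p = 0.359 and 0.211). Fos was higher in the first and not called in the second. Egr1 was higher in both.

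The genetic series compared lines that differ in their Argonautes. They also differ in Blm, which the clones, E7 and B9 lack, and CreERT2 is given for the clones and E7 alone. In comparisons of lines that differ in these, they cannot be told apart from the Argonautes. The spread between libraries left 3 calls for members, all higher in the Argonaute-free clones. Jun, Jund and Fosb were highest in both clone libraries, though Jun by little (472, against 467 in a wild-type library). Fosb was not called. How many of all genes stood apart in this way was not counted, so this is a description. For clones against wild type 1 member was called, Jund, where 18.6% of 13199 genes tested were called. For clones against B9 2 were called, Jun and Jund (13% of all genes), and for clones against E7 none (1.5%). No member was called for E7 against wild type (4.57% of all genes), B9 against wild type (0.0682%) or E7 against B9 (0.0682%). In these 4 comparisons without a called member 2675, 2583, 968 and 1117 of all genes had an unadjusted p below 0.05, and voom called 1 member, Jun, for clones against E7.

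Jund had 8127 and 5544 normalised reads in the clones, 4713, 3508 and 4460 in E7, 1953 and 2352 in B9, and 2801 and 3952 in wild type. The clone libraries were above all others. In log2 terms the change was 1.01 against wild type (SE 0.28, limma adjusted p = 0.0293), 0.68 against E7 (0.182) and 1.65 against B9 (0.00579). The call against wild type was lost without library 1 (0.191) or 2 (0.0655) of wild type, without library 1 of the clones (0.0778), and with the 2 groups fitted alone (0.0756).

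Jun had 852 and 472 normalised reads in the clones, 278, 216 and 99.7 in E7, 192 and 135 in B9, and 467 and 363 in wild type. The clones were above wild type by a small margin in 1 library, and E7 and B9 were below wild type. This gave a log2 change of 1.97 against B9 (SE 0.50, limma adjusted p = 0.0272), 1.80 against E7 (0.0762) and 0.62 against wild type (0.398). The call against B9 was lost without library 1 (0.0789) or 2 (0.129) of B9 or library 1 of the clones (0.0803).

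Fosb had 87.8 and 62.7 normalised reads in the clones, 32.4, 32.2 and 15.3 in E7, 24.9 and 9.61 in B9, and 21.2 and 22.2 in wild type. The clones did not overlap any other line, but the change was not called (1.73 against wild type, SE 0.70, limma adjusted p = 0.107, and 2.18 against B9, 0.063, which was called under 2 other settings, down to 0.042). Fos had 184 and 141 in the clones, 208, 186 and 314 in E7, 176 and 225 in B9, and 87.1 and 88.8 in wild type. Every mutant library was above both of wild type, by 0.87 in the clones (SE 0.40, 0.148), 1.38 in E7 (0.0562) and 1.17 in B9 (0.442), none called. With quantile normalisation Fos was called for E7 against wild type.

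**Figure D5:**
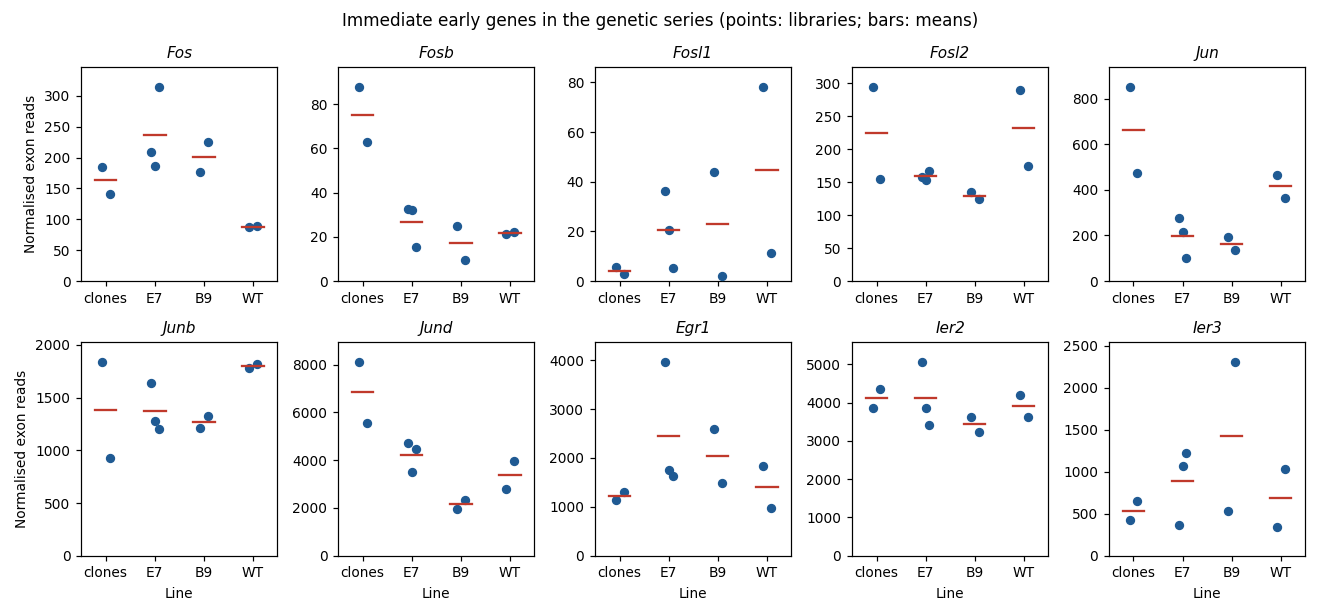
Normalised exon reads (vertical axis, from 0) of each member in the Argonaute-free clones, E7, B9 and wild type (WT, horizontal axis), with 1 point per library (n = 2, 3, 2 and 2) and a bar at the mean. The clones are highest for Jund, Jun and Fosb, wild type is lowest for Fos, and libraries of a line differ widely for Fosl1 and Ier3.

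No other member was called between the lines, though some groups did not overlap. Ier3 had 420 and 655 normalised reads in the clones, 368, 1065 and 1228 in E7, 533 and 2311 in B9, and 340.1 and 1030.4 in wild type, with the lines overlapping. Fosl1 ranged from 1.92 to 78.2 normalised reads over the 9 libraries and from 2 to 140 reads, and both clone libraries were below both of wild type (-2.63, SE 1.40, limma adjusted p = 0.207). Egr1 had 1137 and 1313 in the clones, 3972, 1764 and 1638 in E7, 2585 and 1485 in B9, and 1827 and 984 in wild type. The clones were below all E7 and B9 libraries (-0.88 against E7, SE 0.41, limma adjusted p = 0.254, and -0.68 against B9, 0.326) and overlapped wild type. Ier2 had 3860 and 4367 in the clones, against 4193 and 3633 in wild type, which overlapped, and the B9 libraries were below both. Junb and Fosl2 overlapped between clones and wild type, and in E7 and in B9 all libraries of both genes were below wild type. For Junb the change was -0.41 in E7 (SE 0.29, limma adjusted p = 0.496) and -0.51 in B9 (0.944), and for Fosl2 -0.49 (0.543) and -0.79 (0.817). The median gap between libraries of a line was 0.43 to 0.89 on the log2 scale for the 10 members, against 0.06 to 0.18 in the time course.

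Among themselves, over the 14 conditional libraries with each series centred on its own mean, Jun and Jund were the most alike members (Pearson r = 0.97 of log2(normalised exon reads + 1)), followed by Fos and Fosl2 (0.95). Egr1 and Ier2 were alike (0.88). The most opposite pairs were Fosb and Fosl1 (-0.73), Fosl1 and Jund (-0.66), and Ier2 and Ier3 (-0.65). Libraries of a group share its condition, so r describes these 14 libraries without a test. Of 13139 other genes tested in both series, the most alike were Nfic for Jund (0.987), Skida1 for Jun (0.987), Grin1 for Fosb (0.983), Catip for Ier2 (0.98), Syk for Junb (0.974), Ppp1r9b for Fosl2 (0.967), Rgs16 for Ier3 (0.963), Zfp36 for Fos (0.952), Nrros for Egr1 (0.94) and Wdr41 for Fosl1 (0.925). Zfp36, a protein that binds AU-rich elements and is itself an immediate early gene, was among the 3 most alike of both Fos and Fosl2 (0.967).

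Of 37 other immediate early and early response genes, 34 were tested in the time course. At 24 h 13 were higher and 11 lower, at 48 h 16 and 12, and at 96 h 18 and 4, with a median log2 change of 0.06, 0.16 and 0.20. The share called was 70.6, 82.4 and 64.7% of the list, against 50.7, 63.3 and 65% of all genes, so at 96 h it was at the level of all genes. The largest at 96 h were Btg2, an antiproliferative factor (5907 mean normalised reads, against 1697 at 0 h, 1.80, limma adjusted p = 5.23e-18), Zfp36 (2164, against 679, 1.67, 1.11e-14) and Myc (1016, against 2957, -1.54, 7.13e-13). In the rescue 10 of 33 tested were higher and 13 lower at 2.5 µg/mL (69.7% of the list, against 63.8% of all genes), with a median of -0.07, where Rhob, a small GTPase, changed most (794 mean normalised reads, against 2847 without doxycycline, -1.85, 1.09e-16).

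Serum response factor and its partners were followed through 6 genes, whose part in the changes of the members was not tested. At 96 h 5 were higher and 1 lower than at 0 h (median 0.50), and at 2.5 µg/mL 1 was higher and 4 lower than without doxycycline (median -0.65). All 6 and 5 of the 6 were thus called, where 65% and 63.8% of all genes were. Elk3, a ternary complex factor, had 2604 mean normalised reads at 96 h, against 1140.5 at 0 h (1.19, limma adjusted p = 7.09e-13), and 718 at 2.5 µg/mL, against 1810.2 without doxycycline (-1.34, 4.4e-13). Elk4 had 1757 at 96 h, against 965.5 at 0 h (0.86, 1.79e-09), and 585 at 2.5 µg/mL, against 1692 without doxycycline (-1.53, 1.09e-14). In the clones Mkl2, a cofactor of serum response factor, had 2721 mean normalised reads, against 1781 in E7 and 899.7 in wild type (limma adjusted p = 0.00156 against wild type). None of the 6 was called for clones against E7, and 2, Mkl2 among them, were higher in E7 than in wild type.

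The feedback inhibitors of Erk include genes whose mRNAs are themselves induced by Erk. Of 11 tested 6 were lower and 2 higher at 96 h than at 0 h (median -0.28), 7 were higher and 2 lower at 2.5 µg/mL (median 0.32), and 3 were lower in the clones than in wild type, where 8 were not called. The share called was 72.7% of the list at 96 h, 81.8% at 2.5 µg/mL and 27.3% in the clones, against 65%, 63.8% and 18.6% of all genes. Dusp4, an Erk phosphatase, had 339 mean normalised reads at 96 h, against 1358 at 0 h (-1.99, limma adjusted p = 2.67e-13), 698 at 2.5 µg/mL, against 205 without doxycycline (1.78, 2.54e-11), and 151 in the clones, against 1016 in wild type (-2.72, 0.00577). No inhibitor was called for clones against E7, and 2, Dusp4 among them (243.7 in E7), were lower in E7 than in wild type. Dusp1, a phosphatase that is also an immediate early gene, had 3333 at 96 h, against 1593 at 0 h (1.06, 1.31e-12).

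Of 23 kinases of the Ras, Erk, Jnk and p38 pathways 6 were higher and 10 lower at 96 h than at 0 h (median -0.10), and 10 higher and 7 lower at 2.5 µg/mL (median 0.08). Of the kinases 69.6% were called at 96 h, of the bZIP list 64.3%, of the AU-rich element binders 62.5% and of the AP-1 targets 80.0%, against 65% of all genes. At 2.5 µg/mL the shares were 73.9, 57.1, 75.0 and 66.7%, against 63.8% of all genes. Of 14 tested bZIP partners and competitors of Fos and Jun 4 were higher and 5 lower at 96 h (median -0.01), with Atf3 at 103 mean normalised reads, against 219 at 0 h (-1.10, limma adjusted p = 0.000166), and 5 higher and 3 lower at 2.5 µg/mL. Nab2, a corepressor of Egr factors, had 2927 at 96 h, against 1813 at 0 h (0.69, 5.06e-09), and Nab1 had 989, against 1335 (-0.44, 0.000904). Of 8 tested binders of AU-rich elements 3 were higher and 2 lower at 96 h (median 0.01). Of 10 tested textbook AP-1 targets 6 were higher and 2 lower at 96 h (median 0.34), among them Vim, an intermediate filament gene, at 17707 mean normalised reads, against 9459 at 0 h (0.90, 7.88e-13), and Hmox1, at 5273, against 9710.3 (-0.88, 6.38e-14). In the clones Vim had 18346, against 2898 in wild type (2.63, 0.00291), but of 9 targets tested 1 was higher, 1 lower and 7 not called. The median of these 9 was -0.77, and 22.2% were called, against 18.6% of all genes. No target was called for clones against E7. At 2.5 µg/mL 2 of 9 targets were higher and 4 lower (median 0.01).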

How the data were processed

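Strand-specific libraries of polyadenylated RNA came from 23 mouse ES cell samples, per the labels' protocols. The submitters' processing notes name mm10, TopHat2 2.0.12 and DESeq, with no version for DESeq. How reads were assigned to genes is not given in the sources used here. The authors deposited 6 tables (exons and introns of 3 series), whose signal columns are group means of normalised reads, per the file headers.

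Values of single libraries were recovered from those means, as whole read numbers times 1 step per library. A unique answer was found for 405019 of 405064 means (99.989%), with a relative misfit of at most 5.31e-15, and for every value of the 10 members. The remaining 45, in E7 alone, left out genes such as Pou5f1, Dppa5a, Hspa8 and Hsp90aa1 from the genetic series. The columns carry no replicate number, so which library is which sample or clone is unknown. Even numbers made up 65.1 to 75.7% of exon read numbers between 1 and 200, so reads may not be independent fragments. Nothing in the labels tells that replicates were separate cultures, so p-values measure the spread between these samples, which may be technical.

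limma 3.58.1 (R 4.3.3) was run with a trended prior on log2(normalised reads + 1), fitted once to each table with its groups together. Genes averaging under 10 normalised reads were not tested. Calls were made at a Benjamini-Hochberg adjusted p below 0.05 over all genes of a comparison. Fold changes are on the log2(value + 1) scale and understate changes of low genes. The steps were tested on simulated data. Alternatives were other pseudocounts, filters and normalisations, voom on the recovered reads, 2 groups alone and leaving out each library. All 10 members were named, and from other lists at most the 3 called genes of largest change per comparison. Members, lists, microRNAs and tests were chosen with earlier results of these data known. Sequences are from RefSeq (GRCm38.p6) and, for 3′ UTRs, GENCODE M21, with 1 coding transcript a gene.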

Additional observations from a re-analysis of the deposited data

Results flagged for a closer look

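Junb and Egr1 stand here because their changes against 0 h were called in opposite directions at different times and the difference between those times was called by limma. Junb exons were lower at 24 h and higher at 96 h than at 0 h, and 96 h against 24 h differed by 1.08 on the log2 scale (limma adjusted p = 1.24e-12, both libraries higher). Junb was also higher at 48 h than at 0 h, and 48 h against 24 h differed by 0.44 (6.34e-06). Egr1 exons were lower at 24 h and higher at 96 h, and 96 h against 24 h differed by 2.12 (2.27e-18). They were slightly lower at 48 h, and 96 h against 48 h differed by 1.08 (3.48e-12). Egr1 introns were lower at 24 h and higher at 96 h, and 96 h against 24 h differed by 3.60 (5.86e-10). The comparisons against 0 h share the 0 h libraries. With opposite calls against these, the difference between the 2 times is larger than either change, so its call adds no support. The comparison of 96 h against 24 h was added after the values were seen. Groups of 2 or 3 libraries were too small to look for single libraries standing apart.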

How the results depend on the processing

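No member changed direction past the threshold under any alternative run. Of 74 exon calls of members 54 held under every alternative, 8 were lost under another setting and 19 when a library was left out. Of 8 intron calls 6 held. Calls were also gained, in 14 cases under another setting and in 4 without a library. The 24 h calls of Fos, Fosb and Fosl2 were lost with quantile normalisation (adjusted p = 0.11, 0.0671 and 0.052) and voom (0.072, 0.0864 and 0.0642), and that of Fosb with the 2 groups alone (0.06). With voom 5 members were called at 24 h (8 in the report) and 1 for clones against E7 (0). With quantile normalisation 1 was called for E7 against wild type (0), and with the 2 groups alone 0 for clones against wild type (1). Without a filter 2 members' introns were called at 24 h, 2 at 48 h and 2 at 96 h against 24 h, and with a pseudocount of 8 1 at 0.1 µg/mL. Leaving out a library gave 5 to 7 members at 24 h, 4 to 7 for 96 h against 48 h, 0 to 1 for clones against wild type and 1 to 2 against B9, and for introns 1 to 2 at 24 h, 0 to 1 at 48 h, 1 to 2 at 96 h and 1 to 2 for 96 h against 24 h.

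Of all genes, B9 against wild type had 9 calls in the report, 15 with a pseudocount of 8, 1 without a filter, 23 with quantile normalisation, 15 with voom and 4 with the 2 groups alone. E7 against B9 had 9, 3 without a filter, 3 with voom and 5 alone. Clones against E7 had 198, and 57 alone, and clones against B9 1717, and 1065 alone. Leaving out a library gave 3280 to 4562 for 96 h against 48 h (4973), 0 to 8 for B9 against wild type, 1 to 7 for E7 against B9, 44 to 411 for E7 against wild type (603), 404 to 3450 for clones against B9, 15 to 2144 for clones against E7 and 658 to 3929 for clones against wild type (2454). The cause was not tested. With 1 library left, a group was assumed to vary like the others. No paired analysis was possible because the columns carry no replicate numbers. Low depth limits Fosl1 and the introns, at 0 to 152 reads a library.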
